A study of Mus musculus with 3 samples.

Results

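Of 10 genes that encode network-forming, beaded-filament and fibril-associated collagens, 9 were measured in cardiac myofibroblasts, among 15393 genes that were well above background on at least 1 array. Members were fixed as Col4a1, Col4a2, Col6a1, Col6a2, Col6a3, Col8a1, Col12a1, Col14a1, Col15a1 and Col18a1, and were read by the probes whose RefSeq transcript maps to them, 13 probes in all. No probe name mapped to Col12a1. The hearts of male C57BL/6J mice were taken 3 days after surgery that tied off the left anterior descending artery for good, with an age of 8 weeks in the sample characteristics and 10 weeks in the treatment protocol. Cells that attached to plastic overnight and lacked CD45, a surface protein of leukocytes, were taken as myofibroblasts, the contractile and matrix-producing fibroblasts of injured tissue. Adherent cells were grown on plastic plates, non-adherent cells were moved from such plates into suspension in low-attachment plates, and re-adherent cells were returned from suspension to plastic. Each state had 1 one-colour array, and each RNA was a mixture from hearts of several plates, so no spread between biological replicates exists and no p-value is given. The study's methods place the 3 states one after another, about a week apart, so state and total time in culture cannot be told apart. They also report a large loss of cells in suspension, put down to anoikis, the death of cells that detach from matrix. Non-adherent and re-adherent RNA thus came from the surviving cells, so such loss and change within cells cannot be told apart. The sequence of states served the study to find genes whose expression depends on attachment to a stiff surface.

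Collagens other than the fibril-forming kind build the matrix around fibrils and beneath cells. Collagen IV chains assemble into the sheet that gives basement membranes their tensile strength, and collagen VIII forms hexagonal lattices, best known beneath endothelium. Collagen VI assembles into beaded microfilaments that lie between cells and the interstitial fibrils, collagens XII and XIV decorate the surface of collagen I fibrils, and collagens XV and XVIII anchor basement membranes and release anti-angiogenic fragments from their C-termini. In the heart, fibroblasts are a main source of collagen VI, and basement membrane collagens surround cardiomyocytes and vessels.

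In suspension the network-forming Col4a1 and Col8a1 were over 2-fold lower than in adherent cells, whereas the 3 collagen VI genes, Col15a1 and Col18a1 were over 2-fold higher. Col4a2, at -0.80 on the log2 scale, and Col14a1, at 0.65, stayed within 2-fold. For each of the 9 genes the re-adhesion difference had the opposite sign. Levels are the processed signal of a spot in intensity units, and differences are on the log2 scale after each array was divided by its 75th percentile, which was 651, 697 and 541 units. Values given in threes follow the order of culture, adherent first, then non-adherent, then re-adherent. The error printed after a difference is technical. It combines the errors that the scanner software gave to both spots and says nothing of the spread between cultures. In bulk RNA, fewer cells of a type and less RNA per cell cannot be told apart.

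Over 2-fold was used as the mark of a difference, with no test. Between non-adherent and adherent cells, 2 of 9 collagens were lower and 5 of 9 higher by over 2-fold, where 14.7% and 17.2% of all genes passed the same marks. From suspension to re-adhesion, 5 were lower and 2 higher by that mark, against 16.3% and 15.6% of all genes. Between re-adherent and adherent cells, 3 were lower and 0 higher by that mark, against 4.90% and 4.84% of all genes. The median difference of the 9 collagens was 1.45 in suspension, -1.75 on re-adhesion and -0.62 for re-adherent against adherent cells, and that of all genes was -0.07, 0.08 and 0.06. A single median hides the split, since the 9 differences ran from -4.24 to 2.55 in suspension and from -3.17 to 3.55 on re-adhesion. With the arrays scaled to spike-in probes, 12.5% of all genes were lower and 2.26% higher by over 2-fold in re-adherent than in adherent cells, and 5 of the 9 collagens were then lower.

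The counts depended on the mark. By over 4-fold, 1 collagen, Col8a1, was lower and 1, Col18a1, higher in suspension than in adherent cells, against 5.34% and 7.61% of all genes. On re-adhesion 3 were lower and 1 higher by that mark, against 6.05% and 5.70%, and between the plated states none passed it in either direction, against 1.29% and 1.36%. By over 1.5-fold, 3 collagens were lower and 6 higher in suspension, against 26.3% and 25.4% of all genes. On re-adhesion 6 were lower and 3 higher, against 24.8% and 27.7%, so that all 9 passed this mark in both steps. Between the plated states 5 were lower and 1 higher, against 10.8% and 12.0%.

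**Figure D1:**
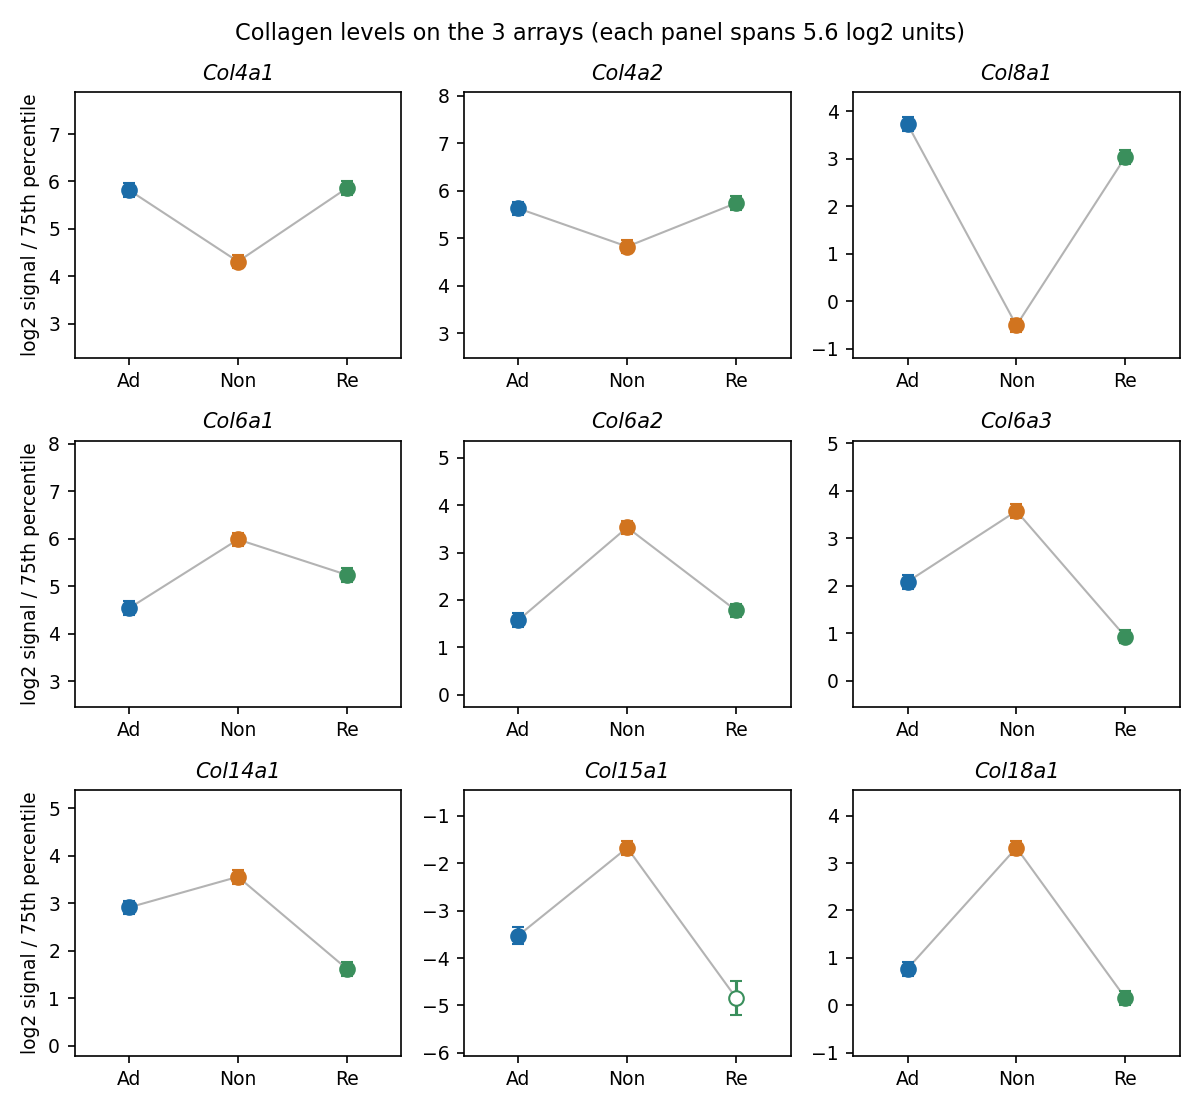
Levels of 9 collagen genes in adherent cells (Ad), suspension (Non) and after re-adhesion (Re), as log2 of the signal divided by the array's 75th percentile. Points are single arrays, bars are the software's technical error, and the open point marks a signal not well above background. Col4a1, Col4a2 and Col8a1 dip in suspension, and the other 6 genes peak there.

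Col4a1 encodes the alpha1 chain of collagen IV, which joins the alpha2 chain encoded by Col4a2 in the common network of basement membranes. Both genes start within the same short stretch of DNA on opposite strands. In RefSeq's mouse assembly GRCm38.p6 the Col4a1 start used here lies at position 11312826 of chromosome 8 on the minus strand and the Col4a2 start at position 11312805 on the plus strand, so that the first 22 bases of the 2 transcripts overlap. The windows from 250 bases before to 50 bases after each start are shown because they overlap and both genes were lower in suspension. Capitals mark the stretch of 78 bases that lies in both windows, read from opposite strands.
Col4a1 (chr8:11312777-11313076, minus strand): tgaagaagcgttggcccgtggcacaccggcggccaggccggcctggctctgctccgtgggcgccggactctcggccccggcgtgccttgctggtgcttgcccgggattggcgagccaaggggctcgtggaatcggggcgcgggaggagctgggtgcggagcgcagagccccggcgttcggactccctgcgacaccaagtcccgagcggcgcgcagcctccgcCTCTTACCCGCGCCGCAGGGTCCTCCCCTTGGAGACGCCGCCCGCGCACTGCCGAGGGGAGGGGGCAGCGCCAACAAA
Col4a2 (chr8:11312555-11312854, plus strand): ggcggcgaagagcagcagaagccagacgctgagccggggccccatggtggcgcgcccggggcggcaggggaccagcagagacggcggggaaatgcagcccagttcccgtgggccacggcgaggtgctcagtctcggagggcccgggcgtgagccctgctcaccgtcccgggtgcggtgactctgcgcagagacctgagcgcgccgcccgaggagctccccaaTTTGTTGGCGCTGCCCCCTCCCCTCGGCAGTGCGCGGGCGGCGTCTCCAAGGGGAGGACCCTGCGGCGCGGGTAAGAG
Both windows are rich in G and C, at 74.0% and 73.7%, where the median of 32851 windows was 52.7%.

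The Col4a1 probe was spotted 10 times on each array, so its level could be read repeatedly. Its mean signal was 36749 units in adherent cells over 9 spots without a flag, 13848 in non-adherent cells and 31467 in re-adherent cells over 10 spots each. Spots ran from 34000 to 38219 units on the adherent array, from 12872 to 14478 on the non-adherent array and from 29302 to 33322 on the re-adherent array. The non-adherent spots therefore did not overlap those of either plated state. On the scaled log2 levels the SD between these repeated spots was 0.063, 0.060 and 0.066, less than the 0.14 that the software gave to each spot. Col4a1 was 2.84-fold lower in suspension, a difference of -1.51 ± 0.20, and 2.92-fold higher again after re-adhesion, a difference of 1.55 ± 0.20. The final level differed from the adherent one by 0.04 ± 0.20, within the technical error, and was -0.44 with spike-in scaling, which also turned Col4a2 to -0.37.

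Col4a2 moved the same way by less. Its signal was 32207, 19744 and 28952 units. The difference was -0.80 ± 0.20 in suspension, 0.92 ± 0.20 on re-adhesion and 0.11 ± 0.20 between the plated states, so that it stayed within 2-fold in each pair of arrays under the scaling used. In suspension the Col4a2 difference was 0.70 above that of Col4a1, with a technical error of 0.29. The gap narrowed when the median difference of the surrounding spots on the array was subtracted. Col4a1 was then at -1.24 and Col4a2 at -0.88 in suspension, and they were at 1.21 and 0.86 on re-adhesion. Col4a1 ranked 1288 and Col4a2 2983 from the lowest of 15393 genes in suspension. Over the alternatives the Col4a2 difference ran from -1.10 to -0.70, and scaling to the spike-in probes placed it over 2-fold. Without scaling the re-adhesion difference was 0.55.

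Col8a1 encodes the alpha1 chain of collagen VIII, a short-chain collagen of vessel walls and of tissue under repair. Its signal was 8635 units in adherent, 489 in non-adherent and 4449 in re-adherent cells, well above background on each array. It had the largest suspension difference among the 9 collagens, -4.24 ± 0.20 or 18.9-fold, and ranked 138 from the lowest of all genes. Re-adhesion brought a difference of 3.55 ± 0.20, an 11.7-fold higher level, and left Col8a1 at -0.69 ± 0.20 from the adherent array, within 2-fold but beyond the technical error. Spots around the Col8a1 spot on the array had median differences of -0.32, 0.51 and 0.41 for the 3 pairs, and subtracting these left -3.92 in suspension, 3.04 on re-adhesion and -1.10 between the plated states. The last value was then over 2-fold, as it was with spike-in scaling, at -1.17. Its promoter window is shown as that of the collagen with the largest fall. Capitals mark GGGCGG or its reverse complement CCGCCC, the GC box that binds Sp-family factors, with 4 matches.
Col8a1 (chr16:57754688-57754987, minus strand): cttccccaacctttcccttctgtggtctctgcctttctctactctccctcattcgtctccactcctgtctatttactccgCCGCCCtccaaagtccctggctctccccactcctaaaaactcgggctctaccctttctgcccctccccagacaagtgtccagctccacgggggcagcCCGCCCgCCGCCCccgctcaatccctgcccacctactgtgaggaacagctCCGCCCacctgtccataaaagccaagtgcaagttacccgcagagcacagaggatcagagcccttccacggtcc

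**Figure D2:**
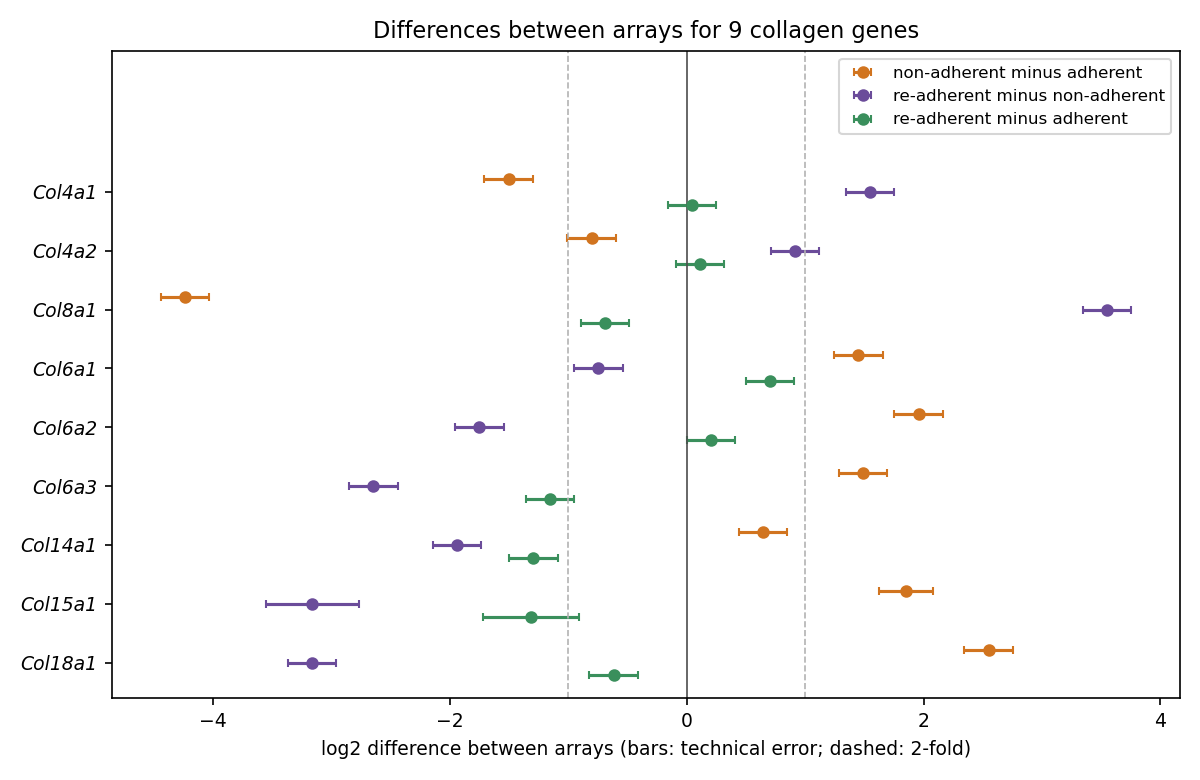
Log2 differences between pairs of arrays for 9 collagen genes, with the technical error as bars and dashed lines at 2-fold. Suspension and re-adhesion differences lie on opposite sides of 0 for each gene, and the measured re-adherent minus adherent differences lie between -1.31 and 0.70. The Col15a1 values against re-adherent cells rest on a signal not well above background.

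Collagen VI needs the chains of Col6a1, Col6a2 and Col6a3 in the same molecule, and the C-terminal piece of the alpha3 chain is cut off as the signalling fragment endotrophin. Col6a1 and Col6a2 lie beside each other on chromosome 10 with 0 protein-coding genes between them, whereas Col6a3 lies on chromosome 1. Col6a1 had 15112 units in adherent, 44155 in non-adherent and 20455 in re-adherent cells. Col6a2 had 1935, 8043 and 1856 units in the same order. Col6a3 had 2758, 8291 and 1028 units. All 3 genes were thus highest in suspension, and the order of the plated states differed between them.

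In suspension the 3 chains were higher, with differences of 1.45 ± 0.20 for Col6a1, 1.96 ± 0.20 for Col6a2 and 1.49 ± 0.20 for Col6a3, or 2.73-fold, 3.88-fold and 2.81-fold. The differences were spread more widely on re-adhesion. Col6a1 differed by -0.75 ± 0.20 from the non-adherent array, Col6a2 by -1.75 ± 0.20 and Col6a3 by -2.65 ± 0.20. Against adherent cells, re-adherent cells thus had more Col6a1, by 0.70 ± 0.20, a Col6a2 level at 0.21 ± 0.20, and less Col6a3, by -1.16 ± 0.20. The gap between Col6a3 and Col6a1 in that comparison was -1.86 with a technical error of 0.29, and between Col6a3 and Col6a2 it was -1.36 with the same error. Scaling shifts all probes of an array alike, so such a gap is not moved by a constant per array. In suspension the Col6a3 to Col6a1 gap was 0.04, within its error, whereas Col6a2 stood 0.51 above Col6a1 and Col6a3 stood at -0.47 from Col6a2, both beyond the error of 0.29. Subtracting the median difference of the surrounding spots gave 1.82 for Col6a1, 2.09 for Col6a2 and 1.65 for Col6a3 in suspension. Col6a2 and Col6a1 then lay within that error of each other. The Col6a1 values themselves moved with the scaling, to -1.19 on re-adhesion with quantile normalization and to 0.22 between the plated states with spike-in scaling, where Col6a2 turned to -0.28.

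Col14a1 encodes a fibril-associated collagen that binds decorin and limits the sideways growth of collagen I fibrils. Its brighter probe gave 4907 units in adherent, 8213 in non-adherent and 1663 in re-adherent cells. The suspension difference, 0.65 ± 0.20, was within 2-fold, whereas the re-adherent level was 3.84-fold below the non-adherent one, at -1.94 ± 0.20. Col14a1 ended below its first adherent level by -1.30 ± 0.20. The other probe, with 604, 923 and 244 units, gave 0.52, -1.56 and -1.04 for the same pairs, in the same directions. Around the brighter spot the surroundings differed by 0.68 on re-adhesion, and subtracting them gave -2.62. Spike-in scaling lowered the suspension difference to 0.35.

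Col15a1 and Col18a1 encode the multiplexins, basement membrane collagens whose triple helix is interrupted many times, and Col18a1 is the source of endostatin. Col18a1 had 1113 units in adherent, 6971 in non-adherent and 603 in re-adherent cells. It had the highest suspension difference of the 9 collagens, 2.55 ± 0.20 or 5.85-fold, ranking 695 from the highest of all genes, and a re-adhesion difference of -3.17 ± 0.20 or 8.98-fold. Its other probe gave 2.26 and -2.98. Re-adherent cells stood at -0.62 ± 0.20 from adherent cells by the brighter probe and at -0.72 by the other, and spike-in scaling moved the former to -1.10. RefSeq's table held windows for 2 starts of Col18a1. The window of the downstream start held 0 GC box matches, and which start the cells used was not tested. The window of the upstream start is printed as that of the collagen with the largest rise, with its 3 GC box matches in capitals.
Col18a1 (chr10:77166481-77166780, minus strand): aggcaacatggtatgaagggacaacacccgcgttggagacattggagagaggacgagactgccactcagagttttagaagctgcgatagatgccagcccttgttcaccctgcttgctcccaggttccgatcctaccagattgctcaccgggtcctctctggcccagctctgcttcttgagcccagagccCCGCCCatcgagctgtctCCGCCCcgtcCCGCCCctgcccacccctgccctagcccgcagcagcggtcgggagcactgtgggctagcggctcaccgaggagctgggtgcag

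Col15a1 was dim, so its differences are less certain. Its brightest probe had 56.5 units in adherent and 218 in non-adherent cells, and 18.9 units in re-adherent cells, which was not well above background. The other probes had 36.4 and 29.7 units in adherent cells, 190 and 99.6 in non-adherent cells, and 8.29 and 9.43 in re-adherent cells, again not well above background there. All 3 probes were thus brightest in suspension, by 1.85 ± 0.23, 2.29 ± 0.27 and 1.65 ± 0.28 over the adherent array. Non-adherent cells were 8.96-fold above re-adherent cells by the brightest probe, a measured value and not a bound. They were at least 8.06-fold and 4.22-fold above by the others. Adherent cells were 2.49-fold above re-adherent cells by the brightest probe, and at least 1.65-fold and 1.35-fold above by the others. The bounds of the other probes set the dim signal at the lowest signal well above background, 18.3 units on the re-adherent array. None of these folds takes in the error of the dim spot. With the normexp background correction the Col15a1 differences shrank to 1.10, -1.44 and -0.34.

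**Figure D3:**
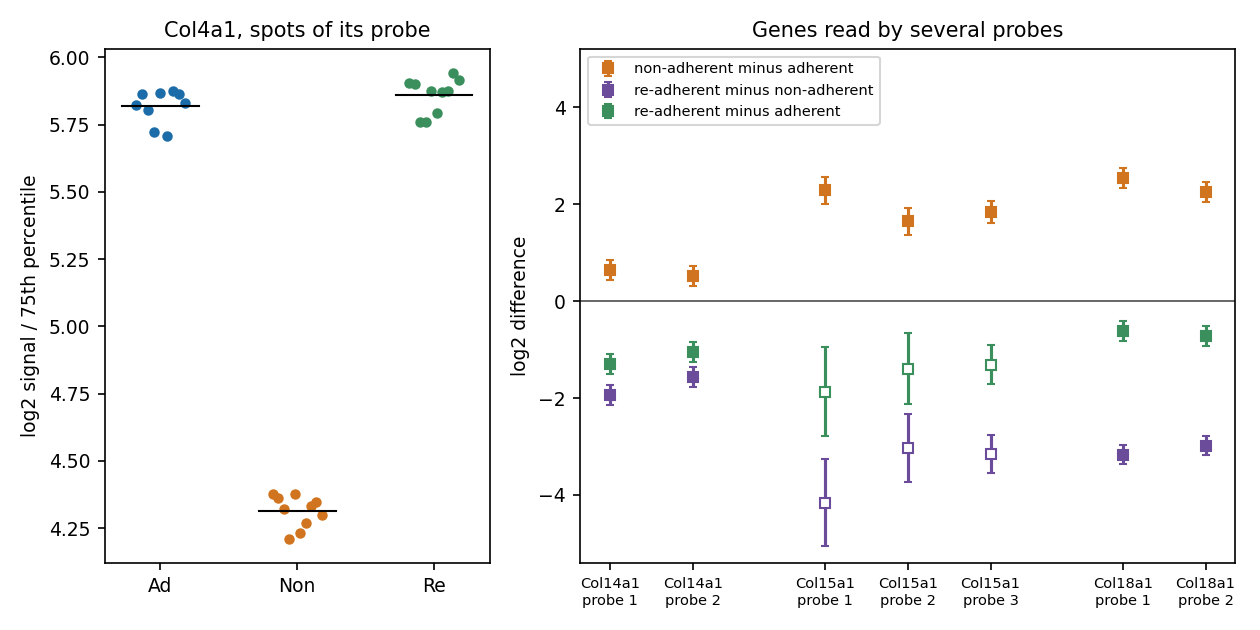
Left, scaled log2 levels of the repeated spots of the Col4a1 probe in adherent cells (Ad), suspension (Non) and after re-adhesion (Re), with the mean as a line. Right, log2 differences by each probe of Col14a1, Col15a1 and Col18a1 with technical error bars, open where the re-adherent signal was not well above background. Every probe of a gene lies on the same side of 0 in each pair of arrays.

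The motifs below were searched on both strands of the 10 promoter windows that RefSeq's table held for 8 of the collagens, counting overlapping matches. GGGCGG was found in 6 of 10 windows and in 35.7% of all windows of that length. The 10 windows are not separate, since the Col4a1 match lies in the stretch shared with the Col4a2 window. Both Col6a2 windows, which hold matches, also overlap each other. CCAAT was found in 3 of 10 against 37.4%, and TATAAA in 0 of 10 against 13.6%. CATTCC, the core of the site bound by TEAD factors, was found in 2 of 10 windows, of Col6a2 and of the downstream Col18a1 start, against 14.7% of all windows. These matches describe the letters in these windows.

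The network collagens that were not members were read as well. Of 20 other network, beaded and fibril-associated collagens, 11 were measured. In suspension 3 were lower and 1 higher by over 2-fold, against 14.7% and 17.2% of all genes, with a median of -0.55. The higher gene, Col26a1, was not well above background in adherent cells, at 15.8 units. Col28a1, among the lower genes, was not well above background in suspension, at 12.0 units. Col4a5, a chain of the collagen IV network found in kidney and smooth muscle basement membranes, had 5668, 2279 and 4697 units, and differed by -1.41 in suspension and 1.41 on re-adhesion. Col4a6, its neighbour on the X chromosome, differed by -0.68 and 0.89. Col4a4 was dim, with 80.5, 59.0 and 64.3 units, and differed by -0.55 ± 0.23 and 0.49 ± 0.24. Each measured collagen IV gene thus had its lowest signal in suspension, for Col4a4 with only a small gap in units to re-adherent cells. Col7a1, the anchoring fibril collagen, differed by -2.24 in suspension and by 0.70 on re-adhesion, ending at -1.54. Col9a2 was within 2-fold, at 0.61 and -0.22. Of 4 transmembrane collagens, 2 were measured and both stayed within 2-fold in suspension.

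Fibrillar collagens, whose fibrils collagens XII and XIV decorate, divided too. Of 11, 5 were lower and 4 higher by over 2-fold in suspension, against 14.7% and 17.2% of all genes, with a median of -0.70. Among those well above background on all 3 arrays, Col11a1 differed by -6.23, Col5a2 by -1.58, Col5a3 by 1.45 and Col11a2 by 1.44. On re-adhesion the same genes differed by 4.95, 0.73, -3.87 and -1.15.

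Basement membrane partners of collagen IV that passed the mark in suspension were lower. Of 17 measured, 9 were lower and 0 higher by over 2-fold, against 14.7% and 17.2% of all genes. The other 8 stayed within 2-fold and the median was -1.17. On re-adhesion 7 were over 2-fold higher and 1 lower, against 15.6% and 16.3% of all genes, with a median of 0.89. Nid1, which links the laminin and collagen IV networks, had 42758 units in adherent, 14525 in non-adherent and 31050 in re-adherent cells, a difference of -1.66 in suspension. Nid2 differed by -1.83 and Tinagl1, a matricellular protein of basement membranes, by -3.67. Nid2 stayed lower in re-adherent than in adherent cells, by -0.93. Agrn, which encodes the heparan sulphate proteoglycan agrin, differed by 0.46 in suspension and by -1.51 on re-adhesion.

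Collagen receptors were mostly lower in suspension. Of 11 measured, 7 were lower and 1 higher by over 2-fold, against 14.7% and 17.2% of all genes, with a median of -1.35. On re-adhesion 5 were over 2-fold higher and 1 lower, against 15.6% and 16.3% of all genes. Ddr1, a tyrosine kinase that binds collagens including collagen IV, differed by -2.76 in suspension and 2.94 on re-adhesion. Itga1, the integrin subunit for collagen IV, differed by -2.25 and 1.10, and Itga11, an integrin subunit for fibrillar collagen, by -2.29 and 1.04. Cspg4, a proteoglycan that binds collagen VI, differed by -2.06 and 0.62. Lair1, a collagen receptor of leukocytes, was the gene over 2-fold higher in suspension, at 1.95.

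Genes that modify and export collagen chains gave 7 of 17 lower and 1 higher by over 2-fold in suspension, with a median of -0.42. The shares of all genes were 14.7% and 17.2%. On re-adhesion 6 were higher and 1 lower by that mark, against 15.6% and 16.3% of all genes. The lysyl hydroxylase Plod2 differed by -2.57 in suspension, the collagen chaperone Serpinh1 by -1.98, the coat component Sec23a by -1.50 and the prolyl 3-hydroxylase P3h1 by -1.36. All 4 returned to within 2-fold of the adherent level, with differences of 0.15, 0.15, 0.05 and 0.28. The higher gene was Colgalt2, at 22.9 units in suspension and not well above background on the plated arrays.

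**Figure D4:**
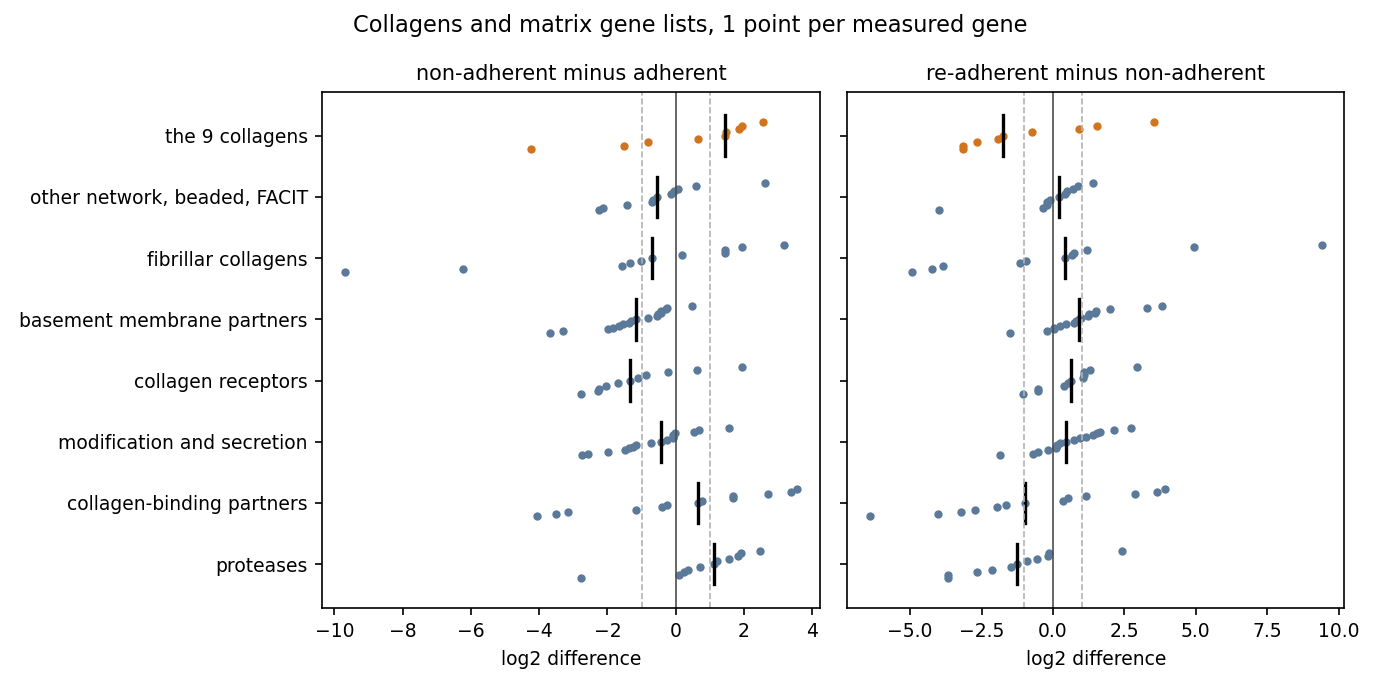
Log2 differences of the 9 collagens (orange) and of genes in 7 related lists (blue), 1 point per measured gene, with the median of each list as a black bar and dashed lines at 2-fold. In suspension the basement membrane partners and collagen receptors have medians of -1.17 and -1.35, and the 9 collagens spread to both sides of 0.

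The course over the 3 arrays was also compared between genes, as the Euclidean distance between log2 levels after the mean of each gene was taken off, over 13475 genes well above background on all 3 arrays. Nearest to Col4a1 were Sec23a, Tmem38a and Fgd3, and Col4a2 ranked 1399 of 13474. Nearest to Col6a1 were Grina, Vegfb and Susd1, with Col6a2 at rank 2370 and Col6a3 at rank 10051. Nearest to Col8a1 were Adamts5, Plscr2 and Apol9b, with Col4a1 at rank 814. Col4a2 was thus not the nearest gene of Col4a1, nor were Col6a2 and Col6a3 those of Col6a1. With 3 arrays these ranks are a description.

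Markers of other heart cells moved between the same arrays. Of 12 macrophage markers, 10 were measured, and all 10 were well above background on each array, with a summed scaled signal of 156, 829 and 290 times the 75th percentile. Ptprc, the gene for CD45, had 355, 2441 and 532 units. In suspension 9 of the 10 were over 2-fold higher, against 17.2% of all genes, and the remaining marker, Itgam, differed by -0.84. On re-adhesion 8 were over 2-fold lower, against 16.3% of all genes. Itgam then differed by 0.68, and Cx3cr1, with 416, 2837 and 8492 units, was higher by 1.95. Of 10 endothelial markers, 10, 10 and 8 were well above background, and their summed signal was 37.8, 41.8 and 40.2. Within that list Cdh5 had 290, 2381 and 26.6 units, Pecam1 127, 316 and 66.0, and Kdr 9446, 7939 and 10321, while Tie1 and Emcn were not well above background in re-adherent cells. Cdh5 and Pecam1 were thus highest in suspension and lowest in re-adherent cells. Col6a3, Col14a1, Col15a1, Col18a1 and the fibroblast markers Dcn and Lum had the same order. Kdr did not, nor did Eng, with 8974, 3658 and 9373 units. In suspension 5 of the 10 endothelial markers were over 2-fold higher and 1, Eng, lower, against 17.2% and 14.7% of all genes.

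Of 8 pericyte and smooth muscle markers, 6, 7 and 5 were well above background, with sums of 52.7, 70.2 and 48.2, and Kcnj8 and Abcc9 were not among them in either plated state, nor Rgs5 in re-adherent and Myh11 in non-adherent cells. The 6 mesothelial markers had sums of 3.91, 2.62 and 7.74, and Upk3b had 130, 132 and 465 units. The 6 measured cardiomyocyte markers had sums of 1.19, 1.98 and 3.38, with Myh6 at 36.4, 75.6 and 26.9 units and Tnni3 and Myl7 not well above background on the plated arrays. The 5 glial markers had sums of 7.78, 1.23 and 3.18, and 5, 4 and 4 of them were well above background. All 9 fibroblast markers were well above background on each array, with sums of 585, 631 and 422, but single markers moved apart. In suspension 3 were lower and 2 higher by over 2-fold, against 14.7% and 17.2% of all genes. Thy1 was at -3.50 and Tcf21 at -1.75, whereas Lum was at 3.56 and Dcn at 1.69. The part of other cell types in the collagen differences was not tested.

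**Figure D5:**
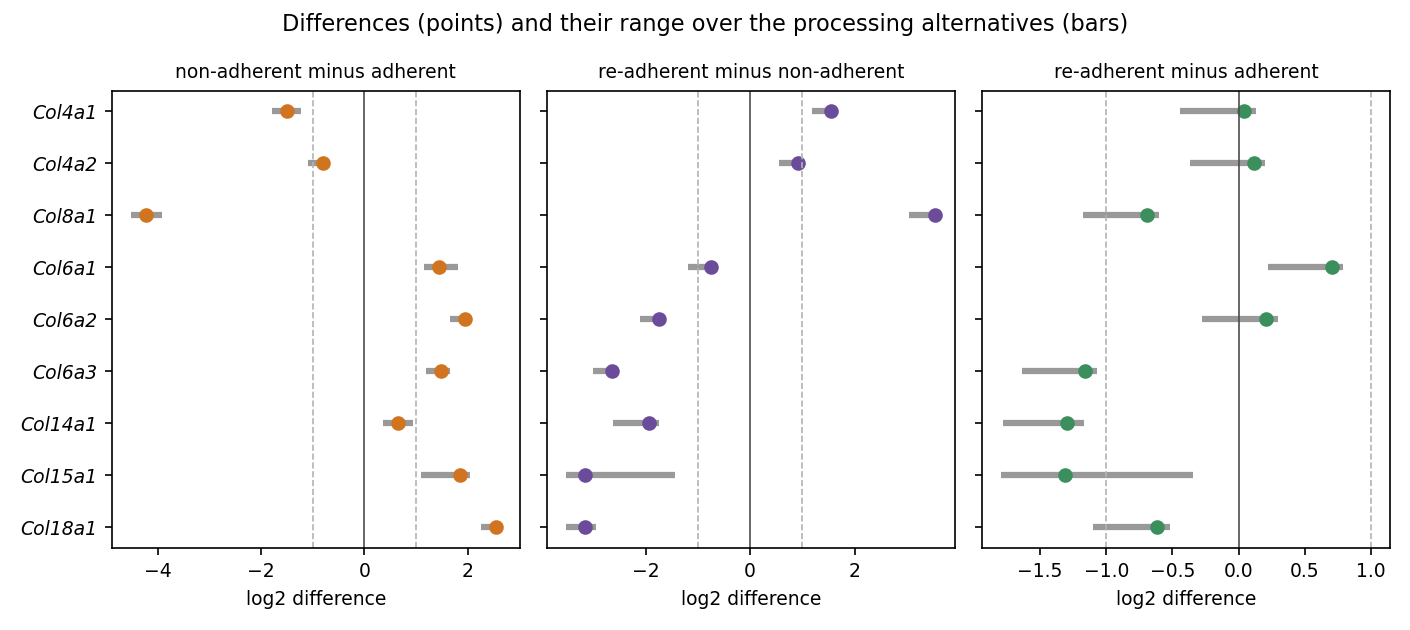
Log2 differences of the 9 collagens (points) and the range over the processing alternatives (grey bars), with dashed lines at 2-fold. In the first and second panels no range crosses 0, and in the third the ranges of Col4a1, Col4a2 and Col6a2 do.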

How the data were processed

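RNA of the 3 states was hybridised to Agilent SurePrint G3 mouse arrays in 1 colour, 1 array per state. Per the file headers, all 3 arrays lay on the same slide, were scanned together and were read with Agilent Feature Extraction 10.10.1.1, and the array design was built on the earlier assembly mm9. The authors deposited the scanner output as intensity on a linear scale: a processed signal, background-subtracted and spatially detrended, with its error and spot flags. The deposited series matrix held intensity values equal to the processed signal times 1 constant per array (1.52, 1.52 and 1.62). The study's methods do not name this normalization.

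Spots flagged as non-uniform or population outliers were left out (154, 180 and 175 of 59305 non-control spots). No non-control spot was saturated, and 53.9% to 59.9% were well above background. The log2 processed signal was reduced by the 75th percentile of its array, and spots of a probe were averaged. Probes were named through RefSeq transcripts of GRCm38.p6 without version, and each gene took the probe of highest mean level among probes well above background on at least 1 array. Promoter windows are RefSeq's, from the same assembly. Members and gene lists were chosen with earlier results of these data known. Named genes were the members, up to 4 genes per list with the largest suspension difference among those well above background on all 3 arrays, defining markers, and the 3 nearest genes of 3 members; a few further list genes were named after their values were seen (Col4a4, Agrn, Lair1, Colgalt2, Ctsl, Ctsb, Kdr, Upk3b, Itgam, Cx3cr1, Thy1, Tcf21, Dcn and markers not well above background). A few genes that this rule selects are not reported here. The nearest genes of Col15a1, dim in re-adherent cells, were not sought.

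Differences carry the technical error of the software, and the small number of arrays limits the precision. The steps were tested on simulated data. The 12 alternatives covered scaling, background correction (limma 3.58.1, normexp with an offset of 50 on median spot signals, since no mean signals were in the files used), dim signals, probe choice, spot surroundings within 5 rows and columns, and the fold mark. Python 3.11.15 and R 4.3.3 were used.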

Additional observations from a re-analysis of the deposited data

How the results depend on the processing

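No paired analysis was possible because the states have 1 array apiece, and no array could be left out. Of the 17 member differences over 2-fold, 16 stayed over 2-fold under each of the alternatives that gave a value, and the exception was Col15a1 in re-adherent against adherent cells, at -0.34 with the normexp correction. The 3 member differences that changed sign under some alternative were those of Col4a1, Col4a2 and Col6a2 between the plated states. Dim signals limit Col15a1 alone.

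The median difference of the members in suspension moved to 1.16 with spike-in scaling, 1.10 with normexp and 1.05 with the filter on all 3 arrays, which removes Col15a1. On re-adhesion it moved to -2.12 without scaling, -2.03 in the authors' values, -1.44 with normexp, -1.25 with the filter and -1.98 with the surroundings subtracted. Between the plated states it moved to -0.88 without scaling, -1.10 with spike-in scaling, -0.34 with normexp and -0.29 with the filter. Relative to the median of all genes, these medians were 1.52, -1.83 and -0.68 under each scaling by a constant. Spike-in scaling shifted the median of all genes between the plated states from 0.06 to -0.42, and gave 5 members over 2-fold lower there in place of 3. By construction the fold mark moved the counts. Over 1.5-fold, 5 members were lower and 1 higher between the plated states. Over 4-fold, 1 was lower and 1 higher in suspension, 3 lower and 1 higher on re-adhesion, and 0 lower between the plated states. The causes of the other shifts were not tested.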

Other observations

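Of 11 measured genes in a list of proteases that act on matrix, 6 were over 2-fold higher and 1 over 2-fold lower in suspension, with a median of 1.14. The shares of all genes were 17.2% and 14.7%. On re-adhesion 6 were over 2-fold lower and 1 higher, against 16.3% and 15.6% of all genes. Mmp2, a gelatinase that degrades collagen IV, had 5700 units in adherent, 34191 in non-adherent and 4183 in re-adherent cells, a difference of 2.49 in suspension and -2.67 on re-adhesion. Mmp3 differed by 1.91 and -3.66 and the cathepsin Ctss, a protease of myeloid cells among others, by 1.83 and -2.14. Ctsl and Ctsb, lysosomal cathepsins known to release endostatin from collagen XVIII, differed by 1.14 and 1.57 in suspension and by -1.48 and -1.25 on re-adhesion. Adamts1, an aggrecanase, was the protease over 2-fold lower in suspension, at -2.77, and differed by 2.43 on re-adhesion. On the same arrays 9 of 10 macrophage markers were over 2-fold higher in suspension, against 17.2% of all genes, with a median of 2.64. Their summed scaled signal was 156 in adherent and 829 in non-adherent cells, and their part in the protease differences was not tested.

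Matrix proteins that bind these collagens went both ways. Of 13 measured, 5 were over 2-fold higher and 4 over 2-fold lower in suspension, against 17.2% and 14.7% of all genes, with a median of 0.65. Lum, which encodes the proteoglycan lumican, differed by 3.56 and then by -6.41 on re-adhesion, and Tnxb, a tenascin that binds fibrillar collagens and collagens XII and XIV, by 3.38 and -2.74. Thbs1 and Tnc differed by -4.07 and -3.50 in suspension and by 3.92 and 2.87 on re-adhesion.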
